A study of Mus musculus with 13 samples.

Results

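The BCL2 family decides whether the outer membrane of the mitochondrion stays intact. RNA of 10 of its genes (Bcl2, Bcl2l1, Bcl2l2, Mcl1, Bcl2l11, Bbc3, Pmaip1, Bax, Bak1 and Bid) was followed across plasma cells sorted from mice that model multiple myeloma, a plasma cell cancer. The genes were taken by symbol from a count table of 22997 symbols, and all 10 were found and passed the low count filter in both fits used here. The series holds 13 bulk RNA libraries, each from 50000 bone marrow cells sorted as CD138+ B220- CD45.2+, all of C57/BL6 background.

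VQ cells carried V{kappa}*MYC, IgG1-Cre and the Nras LSL Q61R/+ allele, and came from recipients of the transplanted lines D1 (2 libraries), D4 (1) and D5 (2). The tVk12653 libraries (2) came from recipients of 1 transplanted line, for which the labels give no further allele. V mice (3) carried V{kappa}*MYC and IgG1-Cre and were not recipients, and WT mice (3) were wild type. V{kappa}*MYC is a transgene whose MYC is switched on in B cells of the germinal centre, and IgG1-Cre recombines in cells that express the IgG1 locus, so that Cre removes the LSL stop and turns on the mutant Nras. VQ and tVk12653 cells had passed through transplantation while V and WT cells had not, so wherever these 2 kinds of library are compared, genotype and transplantation cannot be told apart. Recipients of a line share that line, and the labels give no age or sex for the groups described here.

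Prosurvival members (BCL2, BCL-XL from Bcl2l1, BCL-W from Bcl2l2, and MCL1) hold the effectors BAX and BAK in check. When freed, the effectors open the mitochondrial membrane and release cytochrome c, which starts the caspase cascade. BH3-only proteins (BIM from Bcl2l11, PUMA from Bbc3, NOXA from Pmaip1, and BID) bind the prosurvival members and relieve that block. Normal plasma cells are known to depend on MCL1, and BCL2 and MCL1 are drug targets in myeloma.

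Total counts were 2096815 to 8512281 per library, and 3 counts corresponded to 0.326 to 1.48 CPM, the count relative to the library total with scaling factors from trimmed means of M values (TMM). The plasma cell genes Sdc1 (which encodes CD138), Prdm1, Irf4 and Xbp1 were present in every group, with Sdc1 averaging 883 CPM in D1, 1425 in D4, 393 in D5, 786 in tVk12653, 1009 in V and 881 in WT. Other plasma cell genes did not all do the same. Of the 9 listed, 3 fell in VQ against WT (Jchain, Slamf7 and Cd38). In tVk12653 against WT 3 fell as well (Mzb1, Slamf7 and Cd38), and none rose in either comparison. Mzb1 differed among the VQ lines. The D4 library had only 0.561 CPM of it and the D1 libraries had 154 and 127 CPM. Those of line D5 had 383 and 333 CPM, against 293, 274 and 363 CPM in WT. Jchain averaged 817, 44.5, 1115 and 5361 CPM in D1, D4, D5 and tVk12653, against 43685 in V and 44956 in WT, and Cd38 was listed at 0 in D4 and tVk12653. Markers of other cells also differed. Over 12 of 12 listed neutrophil genes the summed level was 376 to 1273 CPM in D1, 78.7 in D4, 91.8 to 142 in D5 and 91.9 to 159 in tVk12653, against 1868 to 3757 in V and 3462 to 9641 in WT, where replicate 2 was highest. The 9 B cell genes summed to 73.5 to 215 CPM in the transplanted libraries, against 709 to 945 in V and 616 to 953 in WT, and Vpreb1 was at 0 in D1, D4, D5, tVk12653 and V. Without Cd79b, which made up most of the sum in the transplanted libraries, the other 8 summed to 1.09 to 7.41 CPM in the transplanted libraries, against 430.2 to 613 in V and 393 to 753 in WT. The 9 T and NK cell genes found of 10 listed summed to 0.0 to 5.11 CPM in the transplanted libraries, against 35.0 to 44.1 in V and 50.3 to 77.3 in WT, with Ncr1 at 0 in D1, D4, D5 and tVk12653. The 9 erythroid genes found of 11 listed summed to 4.34 to 18.8 CPM in the transplanted libraries, against 11.8 to 32.1 in V and 120 to 770.2 in WT. Of the 8 monocyte genes the sums were 649 to 761 CPM in D1, 1631 in D4, 20.1 to 41.6 in D5, 992 to 1364 in tVk12653, 519 to 1430 in V and 509 to 1670 in WT, and Ms4a6c was at 0 in D4, D5 and tVk12653. Ly6c2 made up most of these sums in D1, D4, tVk12653 and V replicate 1, and without it the other 7 summed to 118 to 149 CPM in D1, 92.2 in D4, 17.7 to 19.4 in D5 and 116 to 169 in tVk12653, against 212 to 369 in V and 382 to 1508 in WT. Of these 7, Cd68 made up most of the sum in D1 (81.7 and 82.7 CPM), D4 (87.5) and tVk12653 (108 and 164). In V it was 12.8 to 33.7 CPM and in WT 20.4 to 40.1. In tVk12653 against WT Cd68 was called higher and 5 of the 7 monocyte genes tested were called lower. The part of any of these other cell types in the results below was not tested. In bulk RNA, fewer cells that express a gene and less of its RNA per cell cannot be told apart.

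**Figure D1:**
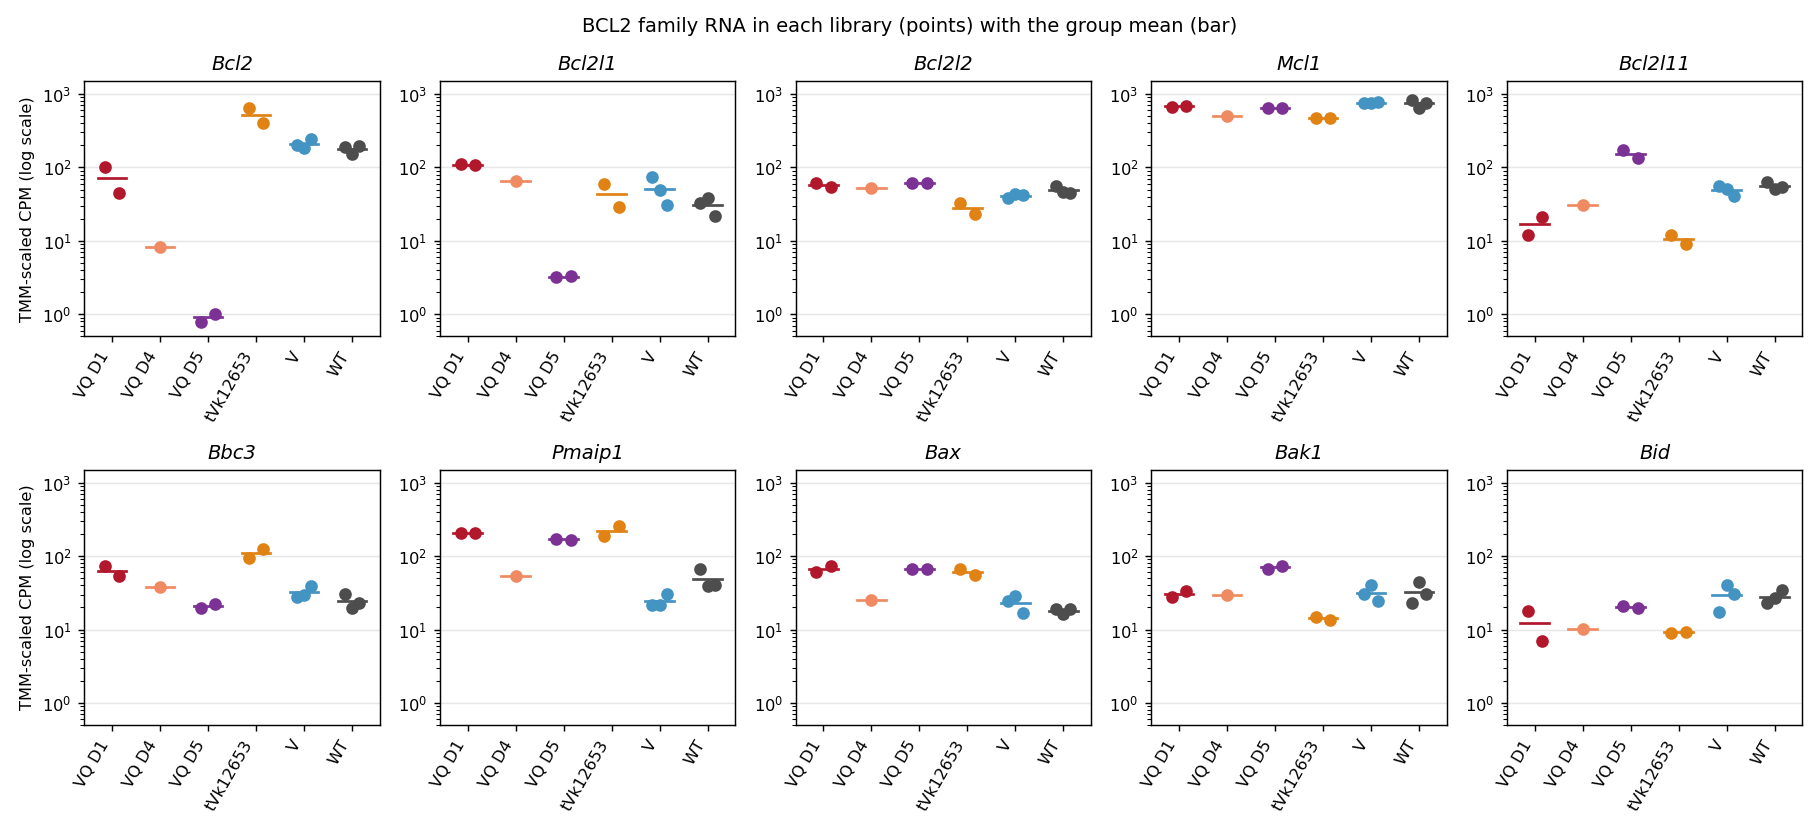
TMM-scaled CPM (log axis) of the 10 genes in each of the 13 libraries (points), with the mean of each group as a bar; VQ D1, D4 and D5 are transplanted VQ lines. Bcl2 covers the widest range, 0.794 to 638 CPM, and Mcl1 the narrowest, 475 to 834 CPM.

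Among the prosurvival genes, Bcl2 (chromosome 1, 106538178 to 106714274, minus strand, GRCm38.p6 as are all positions) covered the widest range. The antisense gene D630008O14Rik lies within it. Bcl2 RNA was 100.5 and 44.6 CPM in D1 recipients, 8.13 in the D4 recipient, 0.794 and 1.02 in D5 recipients, and 638 and 408 in tVk12653, against 199, 186 and 245 in V and 189, 152 and 198 in WT. Every VQ library lay below every V and WT library and both tVk12653 libraries lay above them, while V and WT overlapped. In D5 the gene was almost silent, with 3 and 4 counts, against 414 to 699 counts in the WT libraries. Pooled over libraries, 7 counts in D5 stood against 1651 in WT, and the scaled level in WT was 199.8-fold that in D5 (95% counting interval 96.8 to 498, which covers counting error only). Between its lowest and its highest library the gene spanned 803-fold, a ratio that rests on 3 counts in D5 replicate 1.

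Bcl2l1 (chromosome 2, 152780668 to 152831728, minus strand), whose main product BCL-XL protects many blood cell types, also had its extremes in VQ lines. Bcl2l1 RNA was 109.6 and 108 CPM in D1 recipients, 65.4 in the D4 recipient, 3.18 and 3.32 in D5 recipients, and 59.1 and 28.9 in tVk12653, against 74.8, 49.0 and 30.5 in V and 33.1, 38.3 and 21.9 in WT. D1 was above all other libraries and D5 below all others, with 12 and 13 counts. D4 lay above WT but inside the range of V, and tVk12653 overlapped both V and WT. The lowest and the highest VQ line differed 33.5-fold in their mean, against 79.9-fold for Bcl2.

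Bcl2l2 (chromosome 14, 54883377 to 54888234, plus strand) and Mcl1 (chromosome 3, 95658788 to 95663176, plus strand) spanned 2.69-fold and 1.76-fold over the 13 libraries. Bcl2l2 RNA was 60.7 and 54.4 CPM in D1 recipients, 52.9 in the D4 recipient, 62.2 and 61 in D5 recipients, and 33.0 and 23.2 in tVk12653, against 37.9, 43.4 and 41.8 in V and 56.6, 46.0 and 45.4 in WT. Both tVk12653 libraries were below all others, D1 and D4 overlapped WT, D5 was just above WT, and V lay just below WT. Mcl1 RNA was 664 and 692 CPM in D1 recipients, 503 in the D4 recipient, 647 and 643 in D5 recipients, and 475 in both tVk12653 libraries, against 764, 742 and 779 in V and 834, 641 and 763 in WT. The tVk12653 libraries and D4 were the lowest, whereas D1, D5 and V fell inside the WT range.

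The BH3-only genes moved in different directions in different tumours. Bcl2l11 (chromosome 2, 128126038 to 128162547, plus strand), which encodes the broadly binding BIM, was 12.1 and 21.4 CPM in D1 recipients, 30.3 in the D4 recipient, 173 and 135 in D5 recipients, and 12 and 9.04 in tVk12653, against 56.6, 51.2 and 40.8 in V and 63.3, 50.0 and 54.8 in WT. D5 was above every other library, and D1, D4 and tVk12653 were below every V and WT library. The order over the groups ran opposite to that of Bcl2l1 at its ends within VQ: D5 had the highest Bcl2l11 and the lowest Bcl2l1, and D1 the lowest Bcl2l11 of the 3 lines and the highest Bcl2l1.

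Bbc3 (chromosome 7, 16308393 to 16318205, plus strand), a p53 target gene that encodes PUMA, was 74.4 and 52.8 CPM in D1 recipients, 38.3 in the D4 recipient, 19.6 and 22.5 in D5 recipients, and 94.6 and 124 in tVk12653, against 27.6, 29.1 and 39.5 in V and 30.2, 19.5 and 23.0 in WT. The tVk12653 libraries were highest and D1 next, D4 lay inside the range of V, and D5 inside that of WT.

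Pmaip1, which encodes NOXA, a BH3-only protein that binds MCL1, was 206 and 208 CPM in D1 recipients, 52.9 in the D4 recipient, 173 and 166 in D5 recipients, and 185 and 258 in tVk12653, against 21.7, 21.7 and 30.5 in V and 66.5, 39.0 and 40.0 in WT. D1, D5 and tVk12653 were well above V and WT, D4 lay inside the WT range, and all V libraries were below all WT libraries.

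Bid (chromosome 6, 120891930 to 120916853, minus strand), whose product is cut by caspase-8 and so links death receptors to mitochondria, was 17.7 and 7.05 CPM in D1 recipients, 10.1 in the D4 recipient, 20.6 and 19.9 in D5 recipients, and 9.0 and 9.41 in tVk12653, against 17.2, 40.9 and 30.8 in V and 22.9, 26.9 and 34.6 in WT. All transplanted libraries were below all WT libraries, while D1 and D5 overlapped V. Its opposite-strand neighbour Bcl2l13 overlaps the gene over 913 bases, and since the strand setting of the counting is not given, reads there cannot be assigned.

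The effector genes Bax (chromosome 7, 45461697 to 45466898, minus strand) and Bak1 (chromosome 17, 27019810 to 27029009, minus strand) differed from each other. Bax was 61 and 72.3 CPM in D1 recipients, 25.4 in the D4 recipient, 67.5 and 66.1 in D5 recipients, and 66.7 and 56.1 in tVk12653, against 24.1, 28.8 and 16.9 in V and 19.0, 16.2 and 19.3 in WT. D1, D5 and tVk12653 lay above every V and WT library, and D4 lay above WT but inside the range of V. Bak1 was 27.4 and 33.5 CPM in D1 recipients, 29.3 in the D4 recipient, 67.5 and 72.5 in D5 recipients, and 15 and 13.4 in tVk12653, against 30, 40.9 and 24.3 in V and 22.9, 43.8 and 30.4 in WT. D5 was above and tVk12653 below all other libraries, and D1, D4, V and WT overlapped. Ggnbp1 covers the whole of Bak1 on the opposite strand, so counts of Bak1 carry the same uncertainty as those of Bid. Gm45808 overlaps Bax on the same strand over 915 bases, and Gm20521 overlaps Bcl2l2 on the same strand. Gm37053 and Mir3473f lie within Bcl2, and Gm44260 within Bid, also on the same strand. Where same-strand overlaps fall in exons, reads can be ambiguous with any strand setting.

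Bax and Bbc3, on chromosome 7, were also the only members whose promoter windows held a canonical E-box, CACGTG, the palindromic motif that MYC and other factors bind. The windows (250 bases before to 50 after a transcript start, RefSeq, GRCm38.p6) covered 9 of the 10 members, and 2 of the 9 held the motif in at least 1 window, on either strand, against 8.09% of all 27025 genes with a window (7.15% of 32851 windows). The 100 bases before the start are shown for both genes, 5′ to 3′ in the sense of the gene with the E-box in capitals. Bax and Bbc3 are shown because they are the members for which the motif was found. Bax lies on the minus strand (chr7:45466899-45466998) and Bbc3 on the plus strand (chr7:16310331-16310430).
Bax: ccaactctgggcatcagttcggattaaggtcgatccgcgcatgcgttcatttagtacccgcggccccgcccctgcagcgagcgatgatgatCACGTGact
Bbc3: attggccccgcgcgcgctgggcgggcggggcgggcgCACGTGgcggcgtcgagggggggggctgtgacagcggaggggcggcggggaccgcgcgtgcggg
The motif shown starts 9 bases before the start of Bax and 64 bases before one of the starts of Bbc3, and the Bax window holds a 2nd CACGTG beyond the stretch shown, at base 36 counted from the start. A match describes these letters only. The other 7 members with a window had no match in it, and Pmaip1 had no window.

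The first comparison asked how VQ tumours as a group differed from WT plasma cells, with each of the 3 lines as 1 unit (edgeR quasi-likelihood test, adjusted over 11933 genes). Bax rose by 1.63 ± 0.38 on the log2 scale (SE, adjusted p = 0.0095) and Pmaip1 by 1.63 ± 0.45 (adjusted p = 0.022), and Bcl2 fell by 2.88 ± 0.98 (adjusted p = 0.048). These were 3 of 10 members, against 32.4% of all genes tested, so the share of members is near that of the background. The median log2 fold change was 0.42 over the members and 0.08 over all genes. Bid had -1.0 ± 0.38 (adjusted p = 0.071) and Bbc3 0.75 ± 0.35 (adjusted p = 0.12). Bcl2l1 (0.97 ± 0.86, adjusted p = 0.42) and Bcl2l11 (0.35 ± 0.64, adjusted p = 0.71) had standard errors near or above their fold changes, since the lines differ. Leaving out D5 gave 7 calls (38.4% of all genes there), with Bax, Bbc3, Bcl2l1 and Pmaip1 higher and Bcl2, Bcl2l11 and Bid lower. Leaving out WT replicate 2 or WT replicate 3 left 1, Bax (22.6 and 21.3% of all genes). The Bcl2 call was lost in 13 of 21 alternatives, in which its adjusted p reached 0.15, and the Pmaip1 call in 5 of 21.

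Against V, which shares the MYC transgene and the Cre but has no Nras allele, the VQ lines also differed in Pmaip1, Bax and Bcl2. Pmaip1 rose by 2.6 ± 0.48 (adjusted p = 0.0045), Bax rose by 1.27 ± 0.37 (adjusted p = 0.030) and Bcl2 fell by 3.11 ± 0.99 (adjusted p = 0.042), 3 of 10 members against 28.0% of genes. Both comparisons share the VQ lines, so they are not independent. Leaving out WT replicate 3, V replicate 2 or V replicate 3 left 1 call, Pmaip1 (23.8, 17.7 and 14.2% of all genes there). The Bax and Bcl2 calls were also lost without tVk12653 replicate 1, which leaves 1 library in that group. Bcl2 was again lost in 13 of 21 alternatives and Bax in 8 of 21.

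In tVk12653, 3 of the 6 proapoptotic genes (Bbc3, Pmaip1 and Bax) rose relative to WT and 1 (Bid) fell. Of the 4 prosurvival genes, Mcl1 and Bcl2l2 fell and none rose. The 2 tVk12653 libraries are recipients of 1 line and enter the fit as 2 units. Tests of tVk12653 here and below therefore speak of that line only. Bbc3 was 109.4 ± 20.8 CPM in tVk12653 and 24.2 ± 5.48 CPM in WT (SD, n = 2 and 3), and rose by 2.17 ± 0.38 on the log2 scale (adjusted p = 0.0035). Pmaip1 rose by 2.19 ± 0.49 (adjusted p = 0.011) and Bax by 1.75 ± 0.41 (adjusted p = 0.012). Bid fell by 1.61 ± 0.46 (adjusted p = 0.027), Bcl2l2 by 0.81 ± 0.22 (adjusted p = 0.022) and Mcl1 by 0.65 ± 0.19 (adjusted p = 0.030). These were 6 of 10 members, against 28.2% of all genes, a larger share than the background with no test of that excess, and the median log2 fold change was -0.07 over members and -0.05 over all genes. Fits without either tVk12653 library leave 1 library in that group, and fewer members and fewer of all genes were called in them. The calls for Mcl1 and Bid were each lost in 5 of 21 alternatives, that for Bcl2l2 in 3 and that for Bbc3 in none.

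Bcl2 in tVk12653 shows how the choice of spread matters. Its level was 523 ± 162 CPM in tVk12653 and 180.0 ± 24.4 CPM in WT (SD, n = 2 and 3) with no overlap, and its log2 fold change was 1.54 ± 1.01 (adjusted p = 0.28), as the shared fit takes in the spread of Bcl2 among the VQ lines. In a fit of tVk12653 and WT alone, which called 9 members and 45.8% of all genes, the adjusted p was 0.0010, and with all 13 libraries and 1 mean per group it was 0.0015. Bcl2l11 (-2.40 ± 0.82, adjusted p = 0.052) and Bak1 (-1.19 ± 0.46, adjusted p = 0.081) had adjusted p of 0.00019 and 0.018 in the fit of those 2 arms alone. Over all alternatives, leave-one-out fits included, the adjusted p of Bcl2 ran from 3.6e-05 to 0.58.

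Against V, tVk12653 had 5 of 10 members called, against 23.2% of genes. Pmaip1 rose by 3.16 ± 0.51 (adjusted p = 0.0032), Bbc3 by 1.76 ± 0.38 (adjusted p = 0.011) and Bax by 1.39 ± 0.41 (adjusted p = 0.035), while Bid fell by 1.70 ± 0.46 (adjusted p = 0.027) and Mcl1 by 0.69 ± 0.19 (adjusted p = 0.028). Leaving out V replicate 1 left 3 calls (14.2% of all genes there), and leaving out V replicate 2 or V replicate 3 left 2 (13.8 and 12.4%). Without either tVk12653 library, which leaves 1 library in that group, fewer members and fewer of all genes were called as well. In a fit of tVk12653 and V alone 8 members were called, against 47.7% of genes there.

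The transplanted tumours were also compared with each other. Bak1 (1.69 ± 0.47, adjusted p = 0.048) and Bcl2l2 (1.07 ± 0.22, adjusted p = 0.016) were higher in VQ than in tVk12653, and Bcl2 (-4.41 ± 1.09, adjusted p = 0.034) and Bbc3 (-1.42 ± 0.37, adjusted p = 0.040) were lower. These were 4 of 10 members, against 10.2% of genes. The calls depend on the spread among libraries. None was left in a fit of VQ and tVk12653 alone, where 0.221% of all genes were called. They were also lost without either tVk12653 library, which leaves 1 library in that group. Leaving out any 1 of the V or WT libraries left 1 call (6.47 to 7.96% of all genes). The median log2 fold change was 0.44 over members and 0.18 over all genes.

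In V against WT none of the 10 members passed the test, nor did any other gene (0.0% of those tested). The edgeR test gave 0 genes at an adjusted p under 0.05 and 628 at an unadjusted p under 0.05, and DESeq2 gave 15 higher and 30 lower genes, none of them a member. Pmaip1 was 24.6 ± 5.08 CPM in V and 48.5 ± 15.6 CPM in WT (SD, n = 3 each), with a log2 fold change of -0.97 ± 0.46 (adjusted p = 0.98). V and WT libraries of the same replicate number deviated together, though the labels do not pair them. With only these libraries fitted and the replicate number as a block, Pmaip1 fell by 0.92 on the log2 scale (adjusted p = 0.042). It was the 1 member among the 4.56% of 10510 genes called there. The block was chosen from these same data, so this call is no independent result. For the other 9 members, a p that misses the threshold does not show that V and WT are equal.

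**Figure D2:**
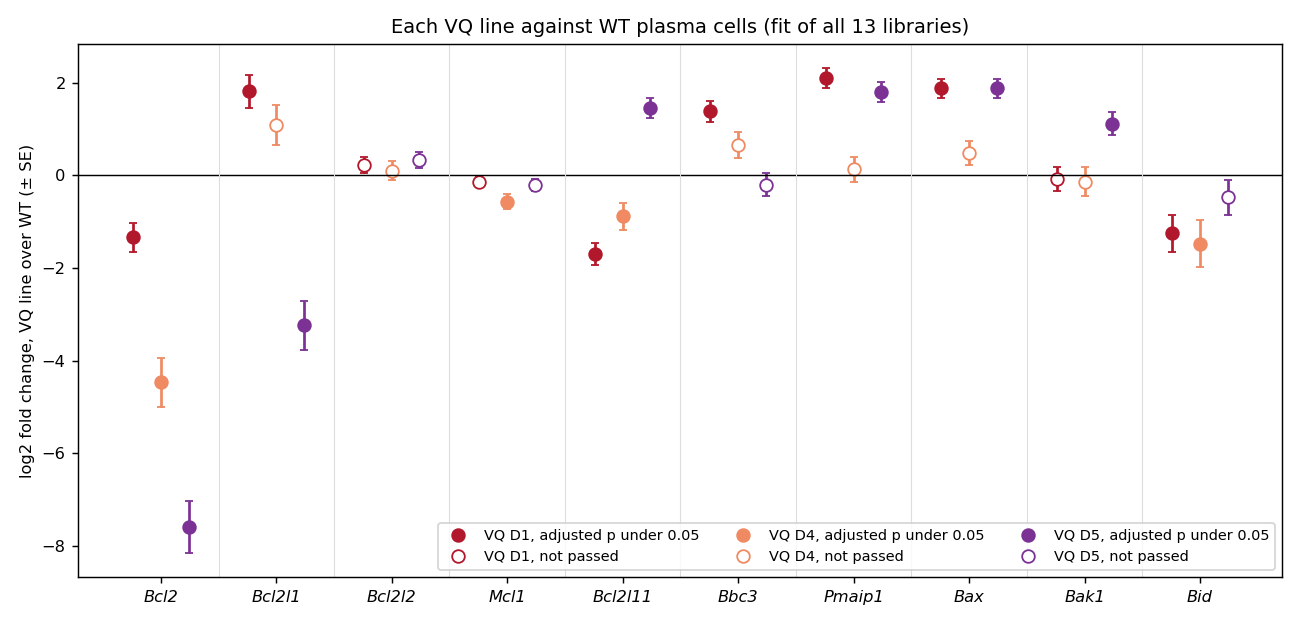
Log2 fold change of each gene (with SE) in the VQ lines D1, D4 and D5 against WT from a fit that gives each of the 6 groups its own mean; filled points have an adjusted p under 0.05 and open points do not. Bcl2 is lower in all 3 lines, Bcl2l1 and Bcl2l11 have opposite signs in D1 and D5, and Bcl2l2 is open throughout.

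The lines were then compared one by one with WT, a contrast added after seeing the data, over 12835 genes. In D1, Pmaip1 (2.09 ± 0.22), Bax (1.87 ± 0.20), Bcl2l1 (1.82 ± 0.36) and Bbc3 (1.38 ± 0.23) rose, and Bcl2l11 (-1.69 ± 0.24), Bcl2 (-1.34 ± 0.32) and Bid (-1.25 ± 0.39) fell. These were 7 of 10 members (adjusted p of at most 0.017), against 51.3% of genes. In D5, Bax (1.87 ± 0.20), Pmaip1 (1.81 ± 0.22), Bcl2l11 (1.46 ± 0.21) and Bak1 (1.12 ± 0.25) rose, and Bcl2 (-7.58 ± 0.56) and Bcl2l1 (-3.23 ± 0.52) fell, 6 of 10 members (adjusted p of at most 0.0015) against 58.6% of genes. Counts of members are therefore near the share of all genes in both lines, and what sets the lines apart is the size and sign of single members.

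D4 had a single library, which the fit assumes to vary like the other groups. Bcl2 fell by 4.46 ± 0.53 (adjusted p = 1e-04), Bid by 1.48 ± 0.51 (adjusted p = 0.032), Bcl2l11 by 0.89 ± 0.29 (adjusted p = 0.024) and Mcl1 by 0.57 ± 0.16 (adjusted p = 0.012). No member rose, and these were 4 of 10, against 41.0% of genes. Pmaip1 (0.13 ± 0.28, adjusted p = 0.74) and Bax (0.48 ± 0.25, adjusted p = 0.15), which rose in D1 and D5, did not pass in D4, and a difference between D4 and those lines was not tested. With no low count filter Bbc3 and Bcl2l1 were called higher in D4, as was Bbc3 without WT replicate 1. The Bid call in D4 was lost with the replicate block and without WT replicate 3, and the Bcl2l11 call without WT replicate 1 (adjusted p = 0.0502). The Bid call in D1 was lost without WT replicate 3 and without D1 replicate 2.

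D1 and D5 carry the same labelled genotype, and each has 2 recipients, so the direct test of their difference is the strongest the design allows within VQ; it measures the spread between recipients of a line, not between lines of a kind. Bcl2 was 72.5 ± 39.5 CPM in D1 and 0.908 ± 0.161 CPM in D5 (SD, n = 2 each), a log2 fold change of 6.24 ± 0.59 (adjusted p = 1.5e-05). Bcl2l1 was 108.7 ± 1.25 CPM in D1 and 3.25 ± 0.101 CPM in D5, a log2 fold change of 5.05 ± 0.52 (adjusted p = 2.1e-05). Bbc3 was higher in D1 as well, by 1.59 ± 0.25 (adjusted p = 0.00017).

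Lower in D1 than in D5 were Bcl2l11, at 16.7 ± 6.56 CPM in D1 and 154 ± 26.9 CPM in D5 with a log2 fold change of -3.15 ± 0.25 (adjusted p = 4.1e-07), and Bak1, at 30.5 ± 4.33 CPM in D1 and 70.0 ± 3.54 CPM in D5 with -1.19 ± 0.27 (adjusted p = 0.0028). These were 5 of 10 members, against 41.7% of genes. The 5 calls held in all 12 alternatives run for this comparison. Bax (0.00 ± 0.21), Mcl1 (0.07 ± 0.14), Bcl2l2 (-0.10 ± 0.18) and Pmaip1 (0.29 ± 0.23) did not pass, and a p that misses the threshold does not show equal levels. Within D1 the recipients themselves differed in Bcl2, with 100.5 CPM in replicate 1 and 44.6 CPM in replicate 2. D1 replicate 1 also had the higher neutrophil sum of the pair, 1273 CPM. In WT, replicate 2 had the highest neutrophil sum, 9641 CPM, and the lowest Bcl2, 152 CPM. A link between the neutrophil sum and Bcl2 was not tested.

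To compare levels between genes, CPM was divided by the length of the annotated exons (GENCODE M21, GRCm38.p6). Per kilobase Mcl1 ranked first of the 10 genes in every group, with 198 in D1, 147 in D4, 189 in D5, 139 in tVk12653, 223 in V and 218 in WT. Behind it the order changed. Pmaip1 was second in D1 (75.7), D4 (19.4), D5 (62.0) and tVk12653 (81.1), whereas Bcl2 was second in V (23.0) and WT (19.7). In WT the genes from Pmaip1 (17.8 ± 5.70) to Bcl2l1 (6.77 ± 1.83) followed in small steps, and neighbours in that order differed by less than the larger SD of the pair except Bcl2l2 (11.1 ± 1.41) and Bid (7.92 ± 1.69). In D5 Bcl2 (0.0991) and Bcl2l1 (0.708) ranked last, and in D4 Bcl2 (0.888) did. Divided instead by the longest RefSeq transcript, Bax was second in D1 (76.8, with Pmaip1 at 75.8), D5 (77.0, with Pmaip1 at 62.1) and D4 (29.3), where Bcl2l1 (25.5) and Bbc3 (21.1) also lay above Pmaip1 (19.4). With either length Mcl1 was first in every group, Pmaip1 was second in tVk12653, Bcl2 was second in V and WT, and the genes ranked last in D4 and D5 were those above.

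**Figure D3:**
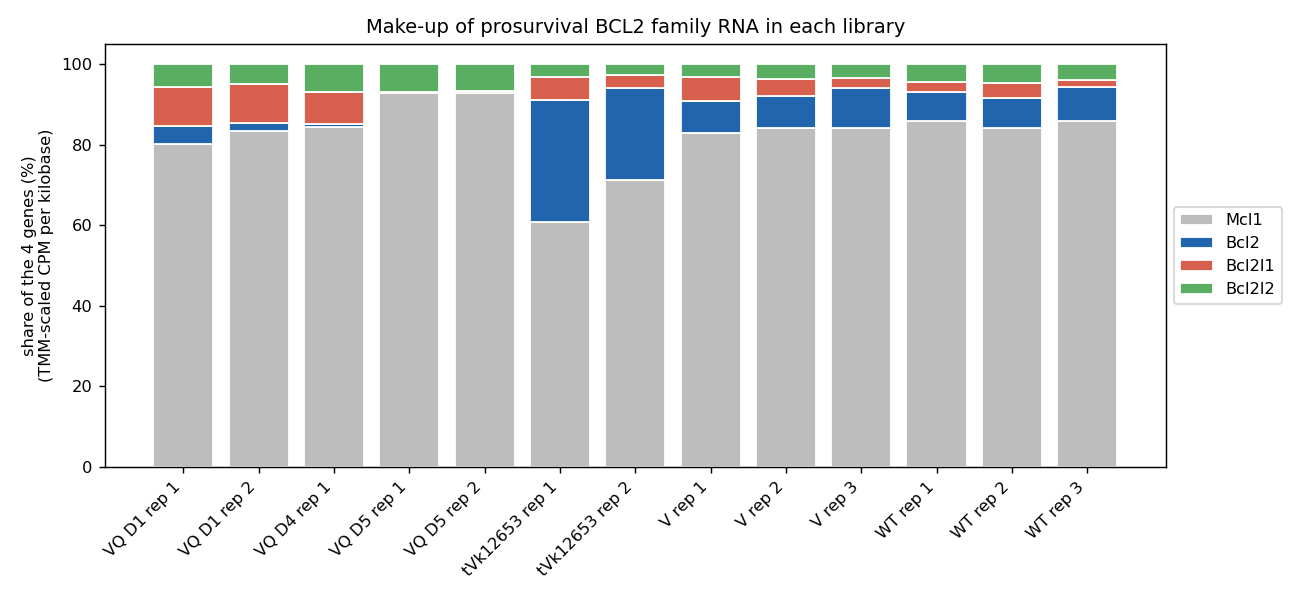
Share of Mcl1, Bcl2, Bcl2l1 and Bcl2l2 (stacked, %) in their summed CPM per kilobase in each of the 13 libraries. Bcl2 takes 30.4 and 22.8% in tVk12653 and at most 4.52% in VQ libraries, and Bcl2l1 takes 8.19% in D4 but at most 0.357% in D5.

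The mix of prosurvival RNA differed accordingly. Mcl1 made up 81.7% of the summed per-kilobase level of the 4 prosurvival genes in D1, 84.5% in D4, 92.8% in D5 and 66.0% in tVk12653, against 83.7% in V and 85.3% in WT. Bcl2 made up 3.26%, 0.510%, 0.0488% and 26.6% in D1, D4, D5 and tVk12653, against 8.61% in V and 7.69% in WT. The share of Bcl2l1 was 9.76% in D1, 8.19% in D4, 0.348% in D5 and 4.43% in tVk12653, against 4.21% in V and 2.70% in WT. With the longest RefSeq transcript as length the share of Mcl1 was lower (59.3% in tVk12653 to 90.9% in D5) and D5 still had the highest and tVk12653 the lowest. That of Bcl2l1 was higher, at 15.8% in D1, 13.5% in D4, 0.609% in D5 and 7.06% in tVk12653, against 7.04% in V and 4.57% in WT. These shares describe RNA, not protein.

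Summed per kilobase, the 6 proapoptotic members (Bcl2l11, Bbc3, Pmaip1, Bid, Bax and Bak1) were high relative to the 4 prosurvival members in all transplanted libraries. The ratio was 0.687 and 0.681 in D1 recipients, 0.415 in the D4 recipient, 0.836 and 0.819 in D5 recipients, and 0.721 and 1.01 in tVk12653, against 0.224 to 0.290 in V and 0.258 to 0.295 in WT. No transplanted library overlapped V or WT, and V and WT overlapped. The numerator was 165 to 198 CPM per kilobase in D1, D5 and tVk12653 and 72.3 in D4, against 60.6 to 74.8 in V and 65.7 to 74.4 in WT, so in D4 it lay inside their ranges and its denominator, 174, was the lowest of all libraries. The denominators were 195 to 243 in D1, D5 and tVk12653, against 258 to 271 in V and 223 to 285 in WT.

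Across the 13 libraries some members varied together (Pearson r of log2 CPM, given as a description, since libraries of a line share a tumour and groups share a genotype). Bax and Pmaip1 had r = 0.87 and Bak1 and Bcl2l11 r = 0.82. Bbc3 and Bcl2l11 had r = -0.92, Bak1 and Bbc3 -0.80, Bak1 and Bcl2 -0.79, and Bcl2l1 and Bcl2l11 -0.72. Among all genes the patterns most like that of Bcl2 were Cebpg (r = 0.98), Nr1h2 (0.98) and Mif4gd (0.97). Most like Bcl2l1 were Atg4c, Spata6 and Usp6nl (0.95 to 0.97), and most like Bcl2l11 were Gtf2e2, Pknox1 and Isg20 (0.96 to 0.98). For Bbc3 they were Tmem205, Dhdh and Man2c1 (0.95 to 0.97), for Pmaip1 Xrcc1, Tmc6 and Utp18 (0.95 to 0.96), and for Bax Wnt5b, Tpi1 and Morc2a (0.96 to 0.97). Bcl2l2 (Utp14b), Mcl1 (Dmrt2), Bak1 (Cdc23) and Bid (Tlr6) had closest matches at 0.95, 0.93, 0.95 and 0.92.

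**Figure D4:**
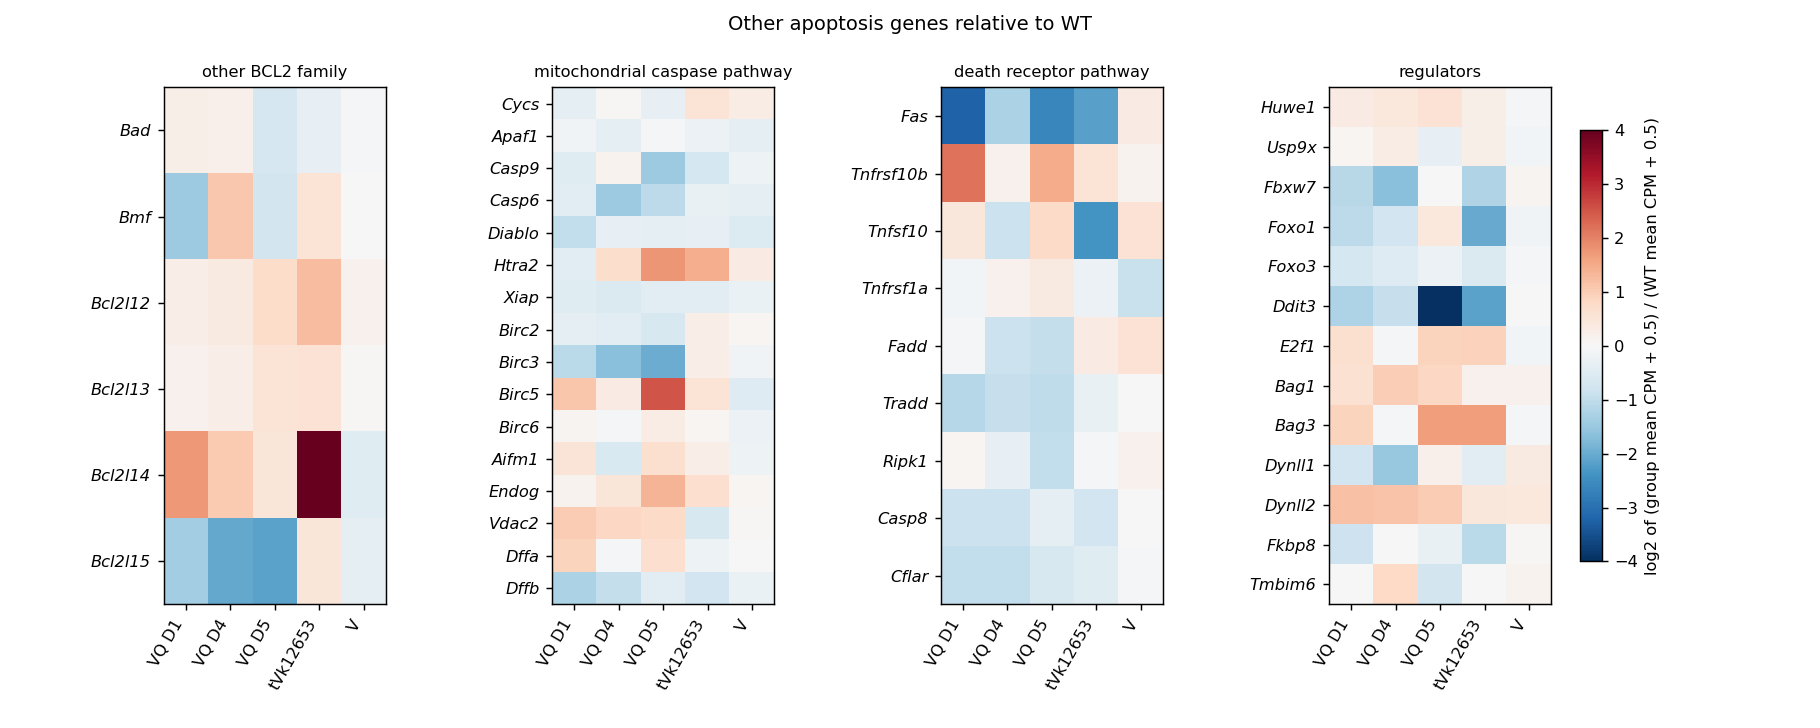
Log2 of each group's mean CPM over the WT mean, with 0.5 CPM added to both, for 44 other apoptosis genes in 4 lists; red is above WT, blue below, and the colours stop at 4 in either direction. Fas is blue in D1, D4, D5 and tVk12653, Birc3 is blue in D1, D4 and D5, and Bcl2l14 is dark red in tVk12653.

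The other genes of the pathway put these values in context. Of the 13 other BCL2 family genes 6 could be tested in the arms; Bcl2a1a, Bcl2a1b, Bcl2a1d, Bcl2l10, Bok and Hrk averaged at most 1.29 CPM in any group and Bik at most 2.42. Bcl2l15 fell in VQ relative to WT (-1.97 ± 0.36, adjusted p = 0.0033), and no gene of the list rose. In tVk12653 Bcl2l14 rose relative to WT (5.47 ± 0.95, adjusted p = 0.0033), at 19.2 and 21.7 CPM in tVk12653 against 0.703, 0.00 and 0.568 CPM in WT. Of all genes tested, 32.4% were called in VQ against WT and 28.2% in tVk12653 against WT. The BH3-only gene Bmf, chosen after its values were seen, was 15.6 and 24.6 CPM in D1 recipients, 119 in the D4 recipient, 32.3 and 34.5 in D5 recipients, and 45.7 and 118 in tVk12653, against 50.7 to 58.0 in V and 47.8 to 67.6 in WT. It rose in D4 (1.09 ± 0.38, adjusted p = 0.038) and fell in D1 (-1.44 ± 0.35, adjusted p = 0.0050).

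Downstream of the mitochondrion, Birc3 and Xiap, which encode inhibitors of apoptosis, fell in VQ against WT. Birc3 had a log2 fold change of -1.46 ± 0.23 (adjusted p = 0.0017). Of 16 genes of the mitochondrial caspase list these 2 fell and 2 rose: Birc5, better known for its part in cell division (1.70 ± 0.55, adjusted p = 0.039), and the channel gene Vdac2, whose product binds BAK (0.92 ± 0.14, adjusted p = 0.0014). Of all genes tested, 32.4% were called in that comparison, so the share of this list was not above the background. The list's median was -0.16, against 0.08 over all genes. In tVk12653 against WT, Htra2 rose (1.47 ± 0.49, adjusted p = 0.046), Vdac2 fell (-0.63 ± 0.16, adjusted p = 0.017), and no other gene of the 16 was called. Of all genes tested, 28.2% were called there. The median was -0.07, against -0.05 over all genes.

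Of the death receptor genes Fas and Casp8 fell in both VQ and tVk12653 relative to WT. In VQ against WT, 4 of 9 tested fell (Fas, Tradd, Casp8 and the caspase-8 inhibitor gene Cflar) and none rose. Of all 11933 genes, 1807 fell there and 32.4% were called in either direction. The list's median was -0.51, against 0.08 over all genes. In tVk12653 against WT, 3 of 9 fell (Fas, Casp8 and Tnfsf10, the gene of the ligand TRAIL) and none rose. Of all 11933 genes, 1868 fell there and 28.2% were called in either direction. The median was -0.32, against -0.05 over all genes. Both shares that fell were larger than those over all genes, with no test of that excess. Line by line, the TRAIL receptor gene Tnfrsf10b rose in D1 (2.34 ± 0.60, adjusted p = 0.0051) and D5 (1.64 ± 0.63, adjusted p = 0.035), and Tnfsf10 rose in D5 (0.76 ± 0.26, adjusted p = 0.023). Fas itself was 1.88 and 1.30 CPM in D1 recipients, 7.71 in the D4 recipient, 2.91 and 2.55 in D5 recipients, and 3.46 and 4.34 in tVk12653, against 18.2, 22.4 and 31.1 in V and 16.2, 15.1 and 26.1 in WT, with no overlap. T and NK cell and B cell markers, whose cells can also express Fas, fell beside it, and their part in the result was not tested.

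Among 13 regulators of BCL2 family proteins or genes, Huwe1 (a ubiquitin ligase of MCL1), Bag1 and Dynll2 (the dynein light chain that binds BMF) rose in VQ against WT and Ddit3 fell. Ddit3 encodes CHOP, a stress factor that can activate Bcl2l11, and its log2 fold change was -1.69 ± 0.57 (adjusted p = 0.046). In tVk12653 against WT, Bag3 rose and Foxo1, Ddit3 and Fkbp8 fell. Of the 13 regulators 3 thus rose and 1 fell in VQ against WT, where 32.4% of all genes were called. In tVk12653 against WT 1 rose and 3 fell, where 28.2% of all genes were called. Both shares are near those of the background. The medians were 0.09 in VQ against WT and -0.02 in tVk12653 against WT, against 0.08 and -0.05 over all genes.

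Between D1 and D5, where 41.7% of all genes were called, single genes of the 4 pathway lists differed as well. Ddit3 was 32.5 and 11.5 CPM in D1 and 1.85 and 3.57 CPM in D5 (2.94 ± 0.49, adjusted p = 0.00038). Foxo1, a transcription factor gene whose product can activate Bcl2l11, had a log2 fold change of -1.48 ± 0.22 (adjusted p = 0.00013). Fbxw7 had one of -1.12 ± 0.15 (adjusted p = 4.7e-05). Dynll1, whose product binds BIM, had one of -0.99 ± 0.16 (adjusted p = 0.00020). Foxo1, Fbxw7 and Dynll1 were thus lower in D1, as was Bcl2l11. Ddit3, whose product can also activate Bcl2l11, was higher in D1. A link of any of them to Bcl2l11 was not tested. Of the 16 mitochondrial caspase genes 2 were higher and 3 lower in D1, of 9 death receptor genes 2 were higher and 2 lower, and of 13 regulators 3 were higher and 6 lower. Of 7 other BCL2 family genes Bad was higher and none lower. The regulators had the highest share of the 4 lists, 9 of 13. The medians of these lists were -0.09, -0.28, -0.25 and 0.82, against 0.05 over all genes.

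In V against WT no gene of the 4 pathway lists passed the test.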

How the data were processed

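The deposited file gives 1 raw count per gene symbol and library, not normalized. Per the labels' protocols, total RNA was isolated (RNeasy Micro) and made into stranded libraries (SMARTer, pico input). STAR 2.6.1d and the build GRCm38.p6 are named in the submitters' processing notes; how reads were counted, and with which strand setting, is not given in the sources used here.

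Counts were scaled by TMM, genes with low counts were removed (filterByExpr with its minimum count set to 10 and its total to 15), and differences were tested by the robust quasi-likelihood method of edgeR 4.0.16 (R 4.3.3). P-values were adjusted by Benjamini-Hochberg across every gene in the fit, and 0.05 was the threshold. Arms were compared in a fit of 11 units (3 WT, 3 V, 2 tVk12653 and 3 VQ lines, recipients of a line summed), and single lines in a fit of the 13 libraries by group. SEs are the fold change divided by the square root of F. The scripts were tested on simulated data. Nothing in the labels says how replicates were taken, so p-values measure the spread between these libraries. Between V and WT libraries of equal number, deviations from the group mean correlated at 0.125 to 0.190. No other 2 groups had all values over 0.1. On that ground alone the V and WT numbers were taken as pairs. This pairing comes from these data and is not given by the labels. In the fit of the 13 libraries with a replicate block, the block also covered the numbers of the other groups.

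All 10 members were named whatever their values, and of each other list up to 4 genes that passed. The members and lists were chosen with earlier results of these data known. Alternatives were relative log expression factors, other filters, DESeq2 1.42.0, other fits, a replicate block and each library or line left out. Promoter sequences are RefSeq's (GRCm38.p6). A few genes of the pathway lists were left out and are not reported.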

Additional observations from a re-analysis of the deposited data

How the results depend on the processing

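No called member change turned round: of 710 alternative values of such changes, 596 kept direction and call and 114 kept direction only. With the 2 arms alone, the members called numbered 1 in VQ against WT, 1 in VQ against V, 9 in tVk12653 against WT, 8 in tVk12653 against V and 0 in VQ against tVk12653, where 17.8, 13.3, 45.8, 47.7 and 0.221% of all genes were called. With 13 libraries and 1 mean per group they numbered 6, 6, 9, 9 and 7 in the same order (57.3, 53.6, 48.7, 44.6 and 39.2% of all genes). With the replicate block added they numbered 6, 7, 9, 9 and 8 (53.7, 50.0, 46.5, 41.9 and 39.6%). Both fits take the spread from libraries of a group, which for VQ are recipients of a line. Spread between VQ lines is thus left out, and such VQ calls speak of these lines only. V against WT had 1 with the replicate block in those 2 groups alone. The ground for the block was seen for V and WT only, and was inferred from these data and not from the labels. In the fit of 13 libraries the block nevertheless took in the replicate numbers of every group. In that fit the block changed the call of Bid in D4 against WT. Leaving out 1 library or line gave the ranges below, with the share of all genes called in brackets. Fits that leave 1 library in a group of 2 are not counted. VQ had 1 to 7 calls against WT (21.3 to 38.4%), 1 to 4 against V (14.2 to 34.1%) and 1 to 5 against tVk12653 (6.47 to 17.1%). The tVk12653 arm had 4 to 8 against WT (18.5 to 39.9%) and 2 to 7 against V (12.4 to 35.7%). Against WT, D1 had 6 to 7 (46.9 to 48.6%), D4 3 to 4 (37.9 to 40.1%) and D5 6 to 7 (54.9 to 56.4%). V against WT had 0 (at most 0.034%). For D1 against D5 every such fit leaves 1 library in a line. WT replicate 2 and D1 replicate 1 were chosen after seeing the data as the libraries with the highest neutrophil sums of their groups. Dropping them together left 2 in VQ against WT (23.0% of all genes).

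Signs were followed only for members called in at least 1 setting of a comparison. Among those, log2 fold changes of 2 genes not called in the main fit changed sign, and some of the turned values passed the test. Other uncalled changes were not checked for sign. With 1 mean per group and no block, Bcl2l1 had -0.11 in VQ against WT, -0.83 in VQ against V and -0.65 in VQ against tVk12653, and Bcl2l11 had -0.37 in VQ against WT and -0.19 in VQ against V. With the replicate block, Bcl2l1 had -0.43, -1.10 and -0.65 in the same order and Bcl2l11 -0.46 and -0.27. Of these, Bcl2l1 passed against V (adjusted p = 0.0010) and against tVk12653 (adjusted p = 0.035). These 2 fits take recipients as replicates and leave out the spread between VQ lines. With 1 library or line left out, Bcl2l1 ran from -0.59 (without line D1) to 0.75 in VQ against V, where it was -0.04 without V replicate 3, and from -0.37 (without line D1) to 1.02 in VQ against tVk12653. Bcl2l11 ran from -1.19 (without line D5, adjusted p = 0.0056) to 0.74 in VQ against WT and from -1.03 (without line D5, adjusted p = 0.013) to 0.90 in VQ against V. Apart from V replicate 3, these settings weight or drop lines that differ in these 2 genes.

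Depth limits Bcl2 and Bcl2l1 in D5, where 3 to 13 counts per library stand behind a value. Comparisons of arms had a common biological coefficient of variation of 0.409, and that of groups 0.195, so small changes between arms may be missed. Single-library D4 has no replicate of its own.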
